A study of Caenorhabditis elegans with 2 samples.

Results

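The genes described here are 10 Caenorhabditis elegans genes that act in the contraction of pharyngeal muscle: the myosin heavy chain genes myo-1, myo-2 and myo-5, the troponin genes tnc-2, tnt-4 and tni-4, and the excitability genes eat-2, eat-18, exp-2 and inx-6. The rule that selects them is a list of gene names known from that muscle, and all 10 were found among the 19973 nuclear protein-coding genes of Ensembl release 115. Binding of PHA-4 was profiled by chromatin immunoprecipitation and sequencing in whole L4 larvae aged 48 h, as 2 biological replicates of 1 group. The strain, RW12220, carried the allele st12220[pha-4::TY1::EGFP::3xFLAG] on chromosome V, made by CRISPR insertion at the pha-4 gene itself, and the larvae had been synchronised by bleaching and starvation at L1. Sonicated chromatin of 200 to 800 bp was precipitated with anti-GFP per the descriptions, while the antibody label reads pha-4. There was no second condition, genotype or stage, so no test between groups was possible.

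The pharynx is the muscular pump with which the worm draws in, concentrates and grinds bacteria. PHA-4 is the FoxA-type forkhead transcription factor that gives cells of the foregut their identity, and it is also present outside the pharynx, for example in the intestine. In pharyngeal muscle it is known to act together with CEH-22, an NK-2 type homeodomain factor, on genes such as myo-2. Pharyngeal muscle is a small part of a whole larva, and binding in few cells cannot be told apart here from weak binding in many.

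Sequences under 6 of the peaks described are printed here to show the DNA at each site. They are 201 bases centred on the peak summit, from the RefSeq copy of WBcel235, the assembly also called ce11, written 5′ to 3′ on the strand of the gene. Only the exp-2 sequence is shorter, at 109 bases, because it stops before the start of an internal transcript. Capitals mark a forkhead match, meaning any of the 7-base words TGTTTGC or TGTTTAC or TATTTGC or TATTTAC or TGTTTGT or TATTTGT on either strand. These 6 words cannot match at the same place on the same strand.
myo-2 upstream peak of replicate 2, chrX:12467702-12467902, plus strand: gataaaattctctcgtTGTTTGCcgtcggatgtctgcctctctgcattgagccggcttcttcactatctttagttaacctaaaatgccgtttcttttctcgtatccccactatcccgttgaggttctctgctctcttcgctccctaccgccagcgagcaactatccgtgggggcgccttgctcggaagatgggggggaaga
myo-2 intron peak of the pooled list, chrX:12469637-12469837, plus strand: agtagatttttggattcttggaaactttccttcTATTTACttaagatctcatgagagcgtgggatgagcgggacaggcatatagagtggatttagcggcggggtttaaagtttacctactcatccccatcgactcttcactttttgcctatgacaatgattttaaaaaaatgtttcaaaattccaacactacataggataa
tni-4 upstream peak of the pooled list, chrIV:5204229-5204429, plus strand: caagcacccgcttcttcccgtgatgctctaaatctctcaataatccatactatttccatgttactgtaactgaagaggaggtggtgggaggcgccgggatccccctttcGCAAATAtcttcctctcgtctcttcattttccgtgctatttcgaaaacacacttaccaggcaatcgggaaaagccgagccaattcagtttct
tnt-4 coding exon peak of replicate 2, chrV:1991459-1991659, minus strand: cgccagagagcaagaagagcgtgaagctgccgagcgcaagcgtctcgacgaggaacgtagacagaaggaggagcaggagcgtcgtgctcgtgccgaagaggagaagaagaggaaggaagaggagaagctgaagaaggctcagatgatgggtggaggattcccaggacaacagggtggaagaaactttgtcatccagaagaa
exp-2 internal start peak of replicate 2, chrV:6135157-6135265, plus strand: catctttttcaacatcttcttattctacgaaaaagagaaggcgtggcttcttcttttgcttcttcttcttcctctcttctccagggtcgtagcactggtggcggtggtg
inx-6 intron peak of the pooled list, chrIV:12747203-12747403, plus strand: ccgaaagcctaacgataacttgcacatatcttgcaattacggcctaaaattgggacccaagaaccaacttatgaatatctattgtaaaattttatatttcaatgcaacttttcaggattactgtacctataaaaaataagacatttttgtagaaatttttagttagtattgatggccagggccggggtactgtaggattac
The upstream and intron windows of myo-2 and the upstream window of tni-4 each held 1 forkhead match. The windows of tnt-4 and inx-6 held none, nor did the 109 printed bases of exp-2. The rest of the exp-2 window was not searched. At the eat-18 start, whose sequence is not shown, the window held 1 match at the summit called from both replicates and 2 at that of replicate 2. Over all windows of 201 bases, 24.7% of the 2920 summits in the list from both replicates held a match. The shares were 20.3% of the 1643 in the replicate 2 list and 21.2% of the 81354 pooled candidates. None of these windows, with exp-2 read over its 109 bases only, held the NK-2 type word TNAAGTG on either strand. That word was in 7.47% of the windows of the list from both replicates. A match is a description of the letters and no measure of binding.

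Binding near the gene starts was summarised first from the thresholded peak lists. A peak counted for a gene when it shared at least 1 bp with the gene or with its start window, which ran from 2000 bp before the gene start to 500 bp past it. The lists were thresholded on the irreproducible discovery rate (IDR), an estimated rate of peaks that would not repeat. Every peak in the less strict list made from both replicates had an IDR of at most 0.01, a −log10 IDR of at least 2.0. The lowest value in the other thresholded lists was not read, and 2 is used below as the threshold for them too. In the less strict list made from both replicates, 1 of the 10 genes had a peak, eat-18, where 2750 of all 19973 genes (13.8%) had one. In the start window alone the count was again 1 of 10, where 10.1% of all genes had a peak. The stricter list from both replicates had none at the 10 genes, beside 7.89% of all genes. At 10 genes, none of these counts stood above the rate of the genome.

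The 2 replicates gave different calls. The thresholded list of replicate 1 had a peak at 0 of the 10 genes, beside 10.7% of all genes. The thresholded list of replicate 2 had a peak at 3 of 10, at tnt-4, eat-18 and exp-2, beside 8.16% of all genes. That share was above the rate over all genes, in 1 library and over 3 peaks, and it was not tested. The peaks at tnt-4 and exp-2 were called in no other list. At the other 9 genes, the nearest peak of the list from both replicates lay between 2278 bp (tni-4) and 67362 bp (myo-5) outside the gene and its window.

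Weaker candidates were then read from the ranked lists, which also hold candidates below the threshold. They were a list from the pooled reads, a list for each replicate and a list comparing the replicates directly. The signal value is the caller's own score and its scale is set per list, so each gene's highest value was also given as a percentile, the percentage of all 19973 genes with a lower highest value. In the pooled list 7 of the 10 genes had at least 1 candidate, as had 61.1% of all genes. The median percentile of the 10 genes was 62.8 in the pooled list, 57.0 in replicate 1 and 80.0 in replicate 2, where genes without a candidate counted as lowest. In the start window alone it was 0.0 in the pooled list, 21.1 in replicate 1 and 0.0 in replicate 2, where 6, 5 and 8 of the 10 genes had no candidate. Over the gene and its window together, 38.9%, 34.3% and 35.5% of all genes had no candidate in these lists. The start window is a part of that region, so in it the shares over all genes cannot be lower. They are not given here. The gene regions were long, with a median of 8034.5 bp against 4027 bp over all genes, and a longer region meets more peaks by position alone. How much of the percentiles this accounts for was not tested.

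**Figure D1:**
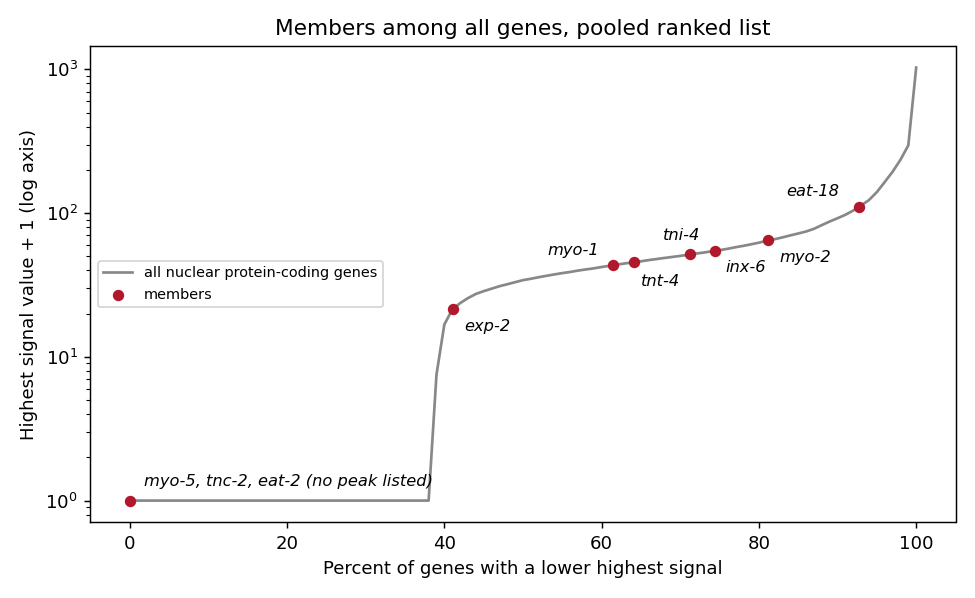
The highest signal value of each gene in the pooled ranked list, plus 1 on a log axis (caller's units), against the percentage of genes with a lower value. The grey line is all 19973 nuclear protein-coding genes and the red points are the 10 genes. Of the 10 genes, 7 run from exp-2 at the 41.1 percentile to eat-18 at 92.7, and myo-5, tnc-2 and eat-2 sit at 0 with no listed peak.

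The absence of a peak in these lists was not a measured low value. Neighbouring summits of the pooled list had a median spacing of 586 bp, yet 1769 stretches longer than 5000 bp held no candidate at all and made up 42.1% of the nuclear genome. The corresponding shares were 37.7% in replicate 1 and 45.2% in replicate 2. The regions of 38.8% of all genes lay wholly inside such a stretch of the pooled list, and 4661 genes (23.3%) had no candidate in any of the 4 ranked lists. Of the 10 genes, myo-5, tnc-2 and eat-2 lay wholly inside a stretch of the pooled list, of 53707 bp, 45419 bp and 21811 bp. Why these stretches are empty is not given in the sources used here. For myo-5 and eat-2 the ranked lists hold no value for PHA-4, high or low, while tnc-2 had candidates in replicate 1.

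**Figure D2:**
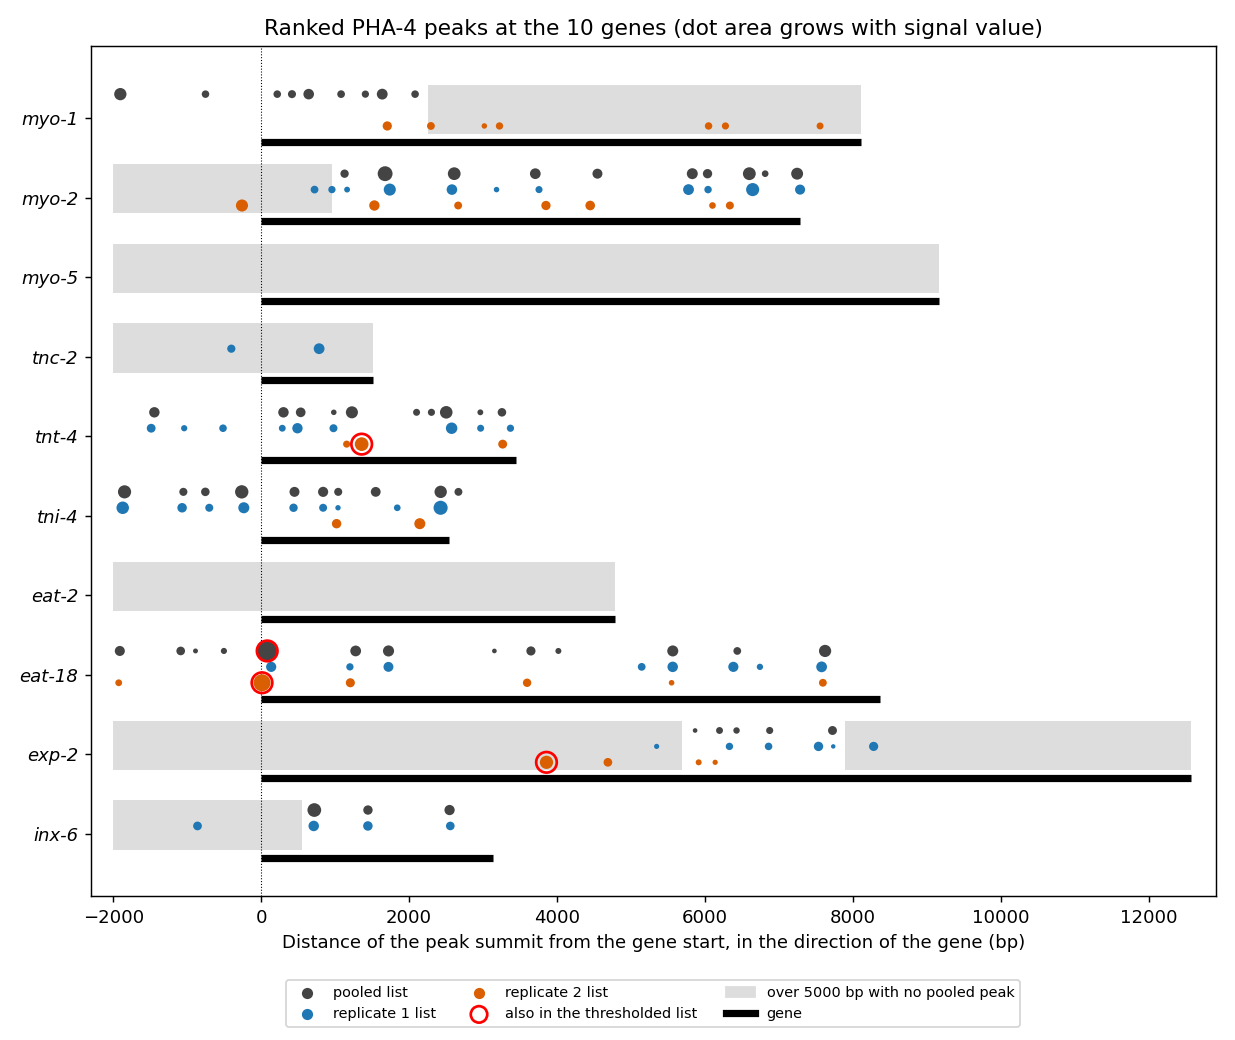
Summits of ranked peaks at each of the 10 genes by distance from the gene start in bp, in the direction of the gene. Grey, blue and orange dots are the pooled, replicate 1 and replicate 2 lists, with area growing with the signal value, red rings mark peaks also in the thresholded list of the same data, black bars are genes and grey blocks are stretches over 5000 bp without a pooled candidate. The rings fall at eat-18 in the pooled and replicate 2 lists, and at tnt-4 and exp-2 in replicate 2, and the 3 genes myo-5, tnc-2 and eat-2 are covered whole by grey.

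The myosin heavy chains are the motor proteins of the thick filament. The gene myo-2 (WBGene00003514, chrX:12468061-12475348, plus strand), which encodes a pharyngeal myosin heavy chain, had candidates over much of the gene. There were 10 in the pooled list, 11 in replicate 1 and 7 in replicate 2. Its highest value was 63.7 in the pooled list, 48.76 in replicate 1 and 40.89 in replicate 2, at the 81.2, 83.1 and 90.9 percentiles. All 3 ranks were above the 80.0 percentile, but the values came from 3 different places, that of replicate 2 upstream of the gene.

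The strongest pooled peak of myo-2 lay in an intron 1676 bp after the start and had a −log10 IDR of 1.90, just under the threshold of 2. Replicate 1 had a candidate close by, 1739 bp after the start, with signal 40.73 and −log10 IDR 1.24. Replicate 2 had one in a coding exon 1531 bp after the start, with signal 28.89 and −log10 IDR 0.22. Overlapping candidates with different summits were thus listed in both libraries, and neither reached the threshold. The row joining them in the list comparing the replicates directly carried 40.73 and 28.89, with a −log10 IDR of 1.38. The highest peak of replicate 1 stood elsewhere, in a coding exon 6644 bp after the start, at 48.76 with a −log10 IDR of 1.58.

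Upstream of myo-2, where the known muscle control region of the gene lies, the lists disagreed. Replicate 2 had its highest candidate of the gene 259 bp before the start, with signal 40.89 and −log10 IDR 1.82, and 96.2% of the replicate 2 candidates were weaker. The summit lay inside the noncoding RNA gene T18D3.14, and its window is the first sequence printed above, with the word TGTTTGC. Replicate 1 and the pooled list had no candidate in the start window. In the pooled list that stretch was empty over 10622 bp, and in replicate 1 over 14020 bp. The upstream candidate therefore rested on replicate 2 alone, in a place where the other lists held nothing to compare with it.

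The gene myo-1 (WBGene00002348, chrI:7258946-7267057, minus strand) encodes another pharyngeal myosin heavy chain. Its highest value was 42.34 in the pooled list, 1903 bp upstream, with a −log10 IDR of 0.57. In replicate 2 it was 22.17, in a coding exon 1705 bp after the start, and replicate 1 had no candidate over the gene or its window. The pooled list had 9 candidates and replicate 2 had 7, and none reached the threshold. The replicate 1 list was empty for 31339 bp around the start. For myo-5 (WBGene00019064, chrV:8108970-8118131, plus strand), a further myosin heavy chain gene, no candidate was listed in any of the 4 ranked lists. The empty stretch around its start was 33647 bp in replicate 1 and 50059 bp in replicate 2.

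Troponin is the calcium switch of the thin filament, with the calcium-binding subunit C, the tropomyosin-binding subunit T and the inhibitory subunit I. For tnt-4 (WBGene00006589, chrV:1989471-1992918, minus strand), the troponin T gene, the highest value was 44.53 in the pooled list, 36.38 in replicate 1 and 53.72 in replicate 2. The replicate 2 peak was a called one, in a coding exon 1359 bp after the start, with a −log10 IDR of 2.70. It was of middle strength among called peaks, since 41.5% of the replicate 2 thresholded list was weaker. The nearest pooled candidate was 1227 bp after the start in a coding exon, with signal 40.57 and −log10 IDR 0.56. The highest replicate 1 candidate was in an intron 2575 bp after the start. In its start window tnt-4 had no candidate in the replicate 2 list, against a highest of 28.92 in replicate 1. The list comparing the replicates directly had rows there. They carried 28.92 and 9.13 at 535 bp after the start, and 10.42 and 6.74 at 302 bp after it. A row 493 bp before the start carried 13.66 and 3.67. In the second of these columns, the highest value whose own peak met the window was 6.74. The libraries therefore placed their highest signal at this gene more than 1 kb apart.

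The troponin I gene tni-4 (WBGene00006586, chrIV:5204591-5207124, plus strand) had its highest values in both libraries in the later part of the gene. Replicate 1 reached 56.97 in the 3′ UTR, 2426 bp after the start, and replicate 2 reached 33.24 in a coding exon 2145 bp after the start. These were the 88.0 and 87.1 percentiles. In the list comparing the replicates directly, the row at 2427 bp after the start carried these values in its replicate columns and had a −log10 IDR of 1.98, just under the threshold. The paired summits lay apart by almost the width of a peak, so this row joined neighbouring rather than coincident peaks. Upstream, the pooled list had peaks of 50.68 at 262 bp and 49.19 at 1846 bp before the start. Replicate 1 had them too, at 33.49 and 43.80, and the replicate 2 list had none in the start window. The list comparing the replicates directly did have rows at these summits. They carried 33.49 and 6.16 at 262 bp, and 43.80 and 15.64 at 1846 bp before the start.

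The troponin C gene tnc-2 (WBGene00006583, chrII:10466852-10468358, plus strand) had 2 candidates in replicate 1 and none in the other 3 ranked lists. The higher was an intron peak 784 bp after the start, at 31.67 with a −log10 IDR of 0.13, and the lower lay 403 bp upstream at 16.65. Replicate 2 was empty for 10547 bp around this start.

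The remaining genes set the rhythm of pumping. The gene eat-18 (WBGene00001147, chrI:14391860-14400222, plus strand) encodes a small membrane protein needed for the function of the pharyngeal nicotinic receptor. Its called peak lay at the gene start, in the 5′ UTR of exon 1, 82 bp after the start in the pooled list. The pooled signal was 110.0, at the 92.7 percentile of genes, with a −log10 IDR of 3.15. This was an ordinary strength for a called peak, as 54.7% of the list from both replicates was weaker.

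The libraries differed at the eat-18 start. Replicate 2 had a called peak 12 bp after the start with signal 85.5 and −log10 IDR 4.17, and 77.2% of its thresholded list was weaker. Replicate 1 had a candidate 136 bp after the start with signal 27.89 and a −log10 IDR of 0.16. In the list comparing the replicates directly, the row at this summit carried 27.89 and 85.5 and had a −log10 IDR of only 0.48. In the pooled list, the 2 sets that were compared had 54.05 and 53.66. The −log10 IDR of 3.15 of the call is that of the pooled comparison. The call thus came with near-equal values in the pooled comparison and unequal values in the replicates. The 2 sets of the pooled comparison are not named, so their near-equal values are no measure of agreement between the replicates.

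The site also lies in another gene. The start of eat-18 is within the span of lev-10, 1527 bp after the lev-10 start, on the same strand. The gene lev-10 encodes a protein needed to cluster acetylcholine receptors at body muscle synapses. The summit lies inside both genes and nearest to the start of eat-18, and position alone does not say which gene it belongs to. The window of 201 bases at the summit had a GC content of 66.2%, against a median of 43.3% at all summits of the list from both replicates. At the called peaks of replicate 2 the GC content was 60.7% at eat-18, 55.2% at tnt-4 and 49.8% at exp-2, and the median of that list was 48.8%. Whether base composition plays a part in these calls was not tested.

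**Figure D3:**
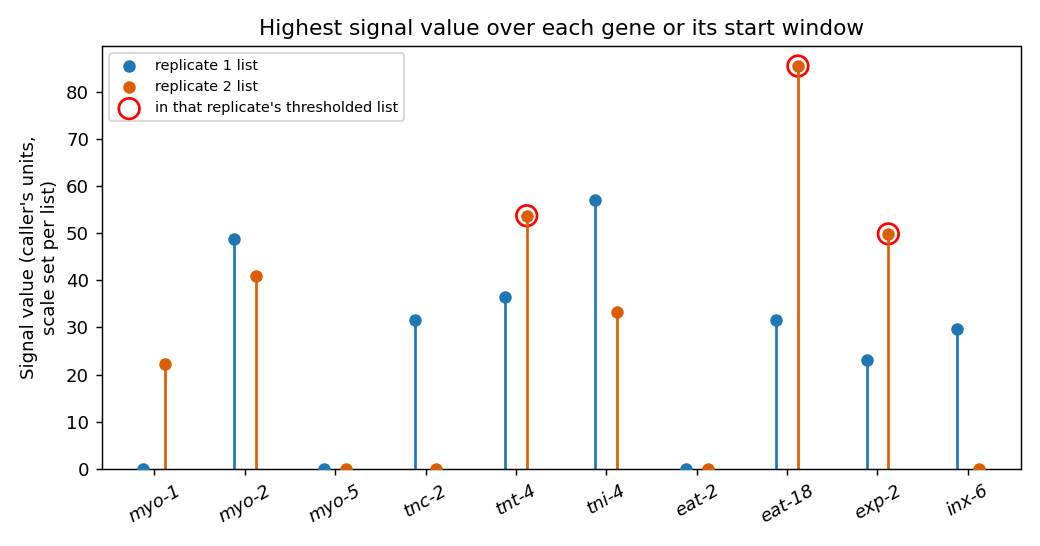
The highest signal value (caller's units, scale set per list) over each gene or its start window in the ranked list of replicate 1 (blue) and of replicate 2 (orange), with red rings where that replicate's thresholded list has a peak. A point at 0 means that no peak was listed. Only replicate 2 has rings, at 53.72 for tnt-4, 85.5 for eat-18 and 49.86 for exp-2. The replicate 1 points of these genes, at 36.38, 31.52 and 23.08, come from other summits.

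The gene exp-2 (WBGene00001374, chrV:6131400-6143970, plus strand) encodes a voltage-gated potassium channel that ends the action potential of pharyngeal muscle. Its called peak in replicate 2 had signal 49.86 and −log10 IDR 2.26, and 34.1% of that list was weaker. The summit was 3857 bp after the outermost start and 9 bp upstream of the start of an internal transcript, F12F3.1a.3. It also lay inside the noncoding RNA gene F12F3.7 and within the span of ttn-1, a giant muscle protein gene on the opposite strand. Neither replicate 1 nor the pooled list had a candidate there. The highest value of replicate 1 was 23.08 in an intron 7534 bp after the start, and that of the pooled list was 20.51 at 7723 bp. The site lay in a stretch of 30252 bp without a pooled candidate. Of all called replicate 2 peaks, 83 of 1643 (5.05%) overlapped no pooled candidate, so the exp-2 peak belonged to a small class.

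The innexin gene inx-6 (WBGene00002128, chrIV:12746584-12749721, plus strand) encodes a gap junction subunit that couples pharyngeal muscle cells. Its highest value was 53.77 in the pooled list, in an intron 719 bp after the start, with a −log10 IDR of 0.19. Replicate 1 had 29.72 there, 711 bp after the start, and the replicate 2 list had no candidate over the gene. The row at this summit in the list comparing the replicates directly carried 29.72 and 15.47, with a −log10 IDR of 0.53. The replicate 2 list was empty for 6522 bp around this start. The receptor subunit gene eat-2 (WBGene00001133, chrII:14166878-14171658, minus strand), part of the nicotinic receptor through which a motor neuron paces pumping, had no candidate in any of the 4 lists. The empty stretches around its start were 24573 bp in replicate 1 and 8602 bp in replicate 2.

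Seen over the 10 genes, the order of the highest values was not stable between the libraries. In replicate 1 it ran tni-4, myo-2, tnt-4, tnc-2, eat-18, inx-6 and exp-2, with myo-1, myo-5 and eat-2 unlisted. In the replicate 2 list it ran eat-18, tnt-4, exp-2, myo-2, tni-4 and myo-1, with tnc-2 and inx-6 unlisted as well as myo-5 and eat-2. Of these unlisted genes, inx-6 did have values in both replicate columns of the list comparing the replicates directly. The gene exp-2 moved from the 43.5 percentile in replicate 1 to 93.7 in replicate 2, and eat-18 from 58.9 to 97.8. Each pair came from different summits. They lay 7534 and 3857 bp after the start for exp-2, and 7576 and 12 bp after it for eat-18. The gene tni-4 had close percentiles, 88.0 and 87.1, from different summits, but came first of the 10 in replicate 1 and after eat-18, tnt-4, exp-2 and myo-2 in replicate 2. With 2 libraries no order between neighbouring genes could be set against an error.

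**Figure D4:**
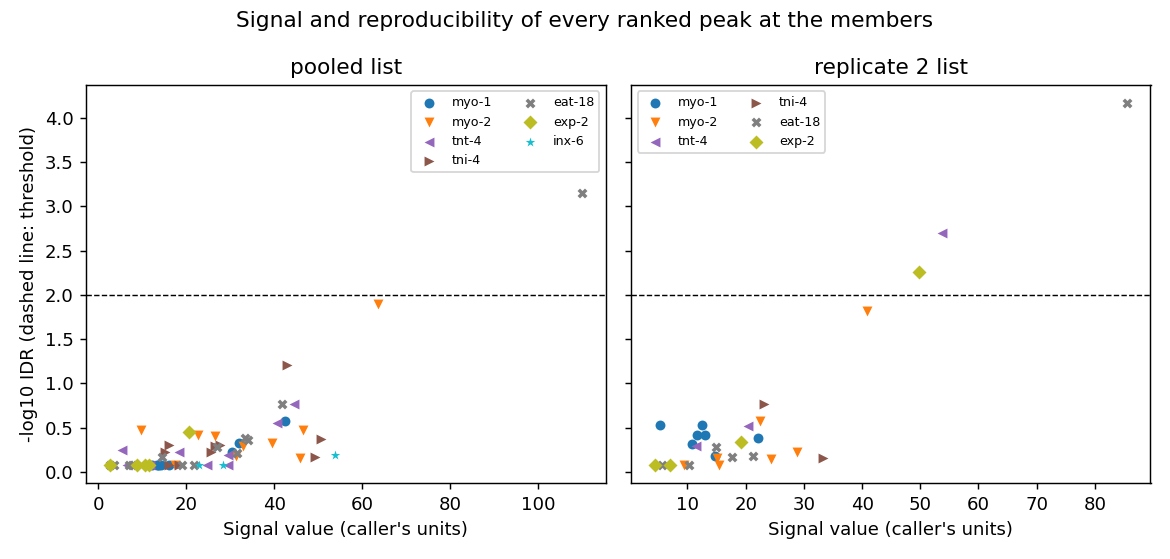
Signal value (caller's units) against −log10 IDR for every ranked peak at the 10 genes, in the pooled list and in the replicate 2 list, with 1 marker shape for each gene and the threshold of 2 as a dashed line. In the pooled list 1 point of eat-18 lies above the line and 1 of myo-2 just under it at 1.90. In replicate 2 the points of eat-18, tnt-4 and exp-2 lie above it and 1 of myo-2 just under it at 1.82.

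The candidates lay in different parts of the genes in the 2 libraries. In replicate 1, 11 of 49 summits (22.4%) were in a coding exon of their gene, 21 in an intron, 9 upstream and 8 in a UTR. In replicate 2, 16 of 29 (55.2%) were in a coding exon, 7 in an intron, 2 upstream and 4 in a UTR. Over all summits in the regions of protein-coding genes, the shares in a coding exon were 16.0% in replicate 1 and 24.4% in replicate 2. Replicate 2 thus had the higher share at the 10 genes and over the genome. Of its 16 coding exon summits, 7 were from myo-1, where replicate 1 listed no candidate, and 5 from myo-2. Without myo-1 the shares were 11 of 49 (22.4%) in replicate 1 and 9 of 22 (40.9%) in replicate 2, and without myo-1 and myo-2 they were 3 of 38 (7.89%) and 4 of 15 (26.7%). Candidates of 1 gene share its sequence and are not replicates, so the shares are descriptions. The shares over all genes are no exact match to them. At the 10 genes only the gene's own coding exons counted. Regions over all genes were also shorter, with a median of 4027 bp against 8034.5 bp, so the upstream part, of fixed length, took up more of them. What this adds to the difference was not tested. In the pooled list 30 of 59 summits were intronic, 12 in coding exons, 11 upstream and 6 in UTRs.

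The promoter sequence was also read at the 10 genes without regard to peaks, from 250 bp before to 50 bp after the start. Forkhead words were present in 4 of 10 (myo-2, myo-5, eat-2 and eat-18), beside 36.3% of all genes. The word TNAAGTG was present in 4 of 10 (myo-1, myo-2, tnc-2 and eat-2), beside 14.1% of all genes. Both kinds were present at myo-2 and eat-2. For myo-5 and eat-2 the peak lists held no candidate to set beside these words.

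Related genes gave similarly few calls. Of 12 other genes of pharyngeal contraction, 1 had a peak in the list from both replicates, the tropomyosin gene lev-11, with signal 78.94. That peak lay outside the start window of lev-11, where none of the 12 had a peak of this list. The gene lev-11 was also called in replicate 2 at 65.44, and its highest replicate 1 candidate was 53.71. The sodium pump gene eat-6 passed the threshold in replicate 2, and its highest candidates were 46.34 there, 46.29 in replicate 1 and 59.94 in the pooled list. The glutamate-gated chloride channel gene avr-15, named after these values were seen, passed it in replicate 1, with 58.06 there, 31.2 in replicate 2 and 71.42 in the pooled list. The innexin gene eat-5 and the calcium channel gene egl-19 had no called peak. Of 18 body wall muscle counterparts, which include the myosin genes unc-54 and myo-3 and the paramyosin gene unc-15, none had a called peak in either list from both replicates or in either replicate list. Read against 13.8% of all genes, 1 of 10, 1 of 12 and 0 of 18 were too few genes to call the lists different, and no test was made between them. The median percentile of the highest pooled signal was 62.8 for the 10 genes, 49.3 for the other pharyngeal genes and 50.3 for the body wall genes. It was 0.0 for the 4 regulators described below. Genes without a candidate counted as lowest, and the region lengths of the other lists are not given here. The difference between these medians was not tested.

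Among 4 regulators of pharyngeal muscle, pha-4 itself had 2 peaks in the list from both replicates, the higher at 67.14, and was called in replicate 1. Neither of the 2 peaks lay in its start window. The highest candidates of pha-4 were 61.27 in replicate 1, 29.78 in replicate 2 and 74.67 in the pooled list, the last not a called peak. The regulator genes ceh-22, pha-2 and tbx-2 had no called peak and no candidate in the pooled list. Over all genes, 13.8% had a peak in the list from both replicates and 38.9% had no pooled candidate. With 4 genes no difference from these shares could be called. The highest candidate was 28.97 for ceh-22 in replicate 1 and 19.06 for tbx-2 in replicate 2, while pha-2 had none in either.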

How the data were processed

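The peak lists are those the authors deposited, on ce11 per the file headers and labels, and no read files were analysed here. Per the notes deposited with the lists, they came from filtered alignments and a control. The aligner, peak caller and settings are not given in the sources used here, and read depth is unknown. The deposited signal value is the caller's own, with a scale set per list. The deposited −log10 IDR reaches 5 in the ranked lists. The 2 further sets of values in the deposited pooled list are not named there and were read as a score. The list comparing the replicates directly has 2 columns of replicate values whose headers do not say which replicate each holds. Of their rows, 89.3% recurred in the replicate 1 list for the one and 57.3% in the replicate 2 list for the other, and none the other way round. Its values are given without a replicate number, and a row can join different summits of the 2 libraries. A gene or window without a candidate in a replicate list can still have a value in these columns.

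Gene positions came from Ensembl release 115 and sequences from the RefSeq copy of WBcel235. All peaks ended within its chromosomes. The main list was the less strict one from both replicates. Peaks were joined to genes, scored and searched for motifs with Python 3.11.15, numpy 2.4.6 and pandas 2.3.3, and drawn with matplotlib 3.10.9. The steps were tested on simulated data. Only counts, values and ranks were computed, since 1 group of 2 replicates allows no test. The alternatives were other lists, thresholds, overlaps and windows. Genes named were the 10, up to 4 of each other list with the strongest called peak and up to 3 without one, and genes at a peak. The members and lists were chosen with earlier results of these data known, and the search for empty stretches was added after the data had been seen.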

Additional observations from a re-analysis of the deposited data

How the results depend on the processing

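Over the gene or start window, 1 of the 10 genes had a called peak, beside 13.8% of all genes. The count became 0 in the stricter list (7.89% of all genes). It ran from 0 without replicate 2 (10.7%) to 3 without replicate 1 (8.16%). In the start window the count was 1, beside 10.1% of all genes, and became 0 in the stricter list (5.92%). There it ran from 0 without replicate 2 (7.79%) to 1 without replicate 1 (5.78%). Both counts stayed at 1, each time eat-18, with a −log10 IDR of at least 3 or the summit inside. Over the gene or start window the shares of all genes were then 7.68% and 12.7%. In the start window they were 5.66% and 9.55%. The first count also stayed at 1 with the larger part of the peak inside (12.7% of all genes) or the gene alone (7.38%). The second did so with windows reaching 1000 bp (7.76%) or 5000 bp (15.9%) upstream or placed at every transcript start (11.1%). The median percentile of 62.8 was 57.3 in the list ranked between the replicates and ran from 57.0 without replicate 2 to 80.0 without replicate 1. It was 0.0 in the start window only, where 6 of 10 genes had no pooled candidate. The share of all genes without one there is not given here. Over all genes, 2750 called became 1576 in the stricter list, 1629 without replicate 1, 1534 at −log10 IDR 3 and 1475 for the gene alone. Empty stretches, with limits chosen after seeing the data, covered 47.0% of the genome above 2000 bp and 41.6% above 10000 bp in the pooled list. No paired analysis was possible because there was 1 group. Read depth was unknown, a control was not analysed here, and where a list is empty it cannot show whether PHA-4 was bound.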
